A study of Homo sapiens with 15 samples.

Results

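Gene-desert regions are open chromatin regions that lie far from every protein-coding gene. ATAC-seq peaks on chromosomes 1 to 22 of all 15 libraries were merged wherever they shared 1 bp or more, and merged regions with a peak in 2 or more libraries were kept. A region was counted as a desert region when its midpoint lay 200 kb or more from the body of any GENCODE v44 protein-coding gene. This rule gave 27245 desert regions of 285511 regions in all (9.54%), spread over 746 intervals. These are called deserts here and lie between neighbouring protein-coding genes or, for 774 of the regions, between such a gene and a chromosome end. Deserts are named by their flanking genes. The median distance to the nearest protein-coding gene body was 396569 bp and the greatest 5510105 bp. Deserts were free of protein-coding genes only: 37.7% of the desert regions overlapped the body of an annotated long non-coding RNA gene.

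The cells were RPTEC, human renal proximal tubule epithelial cells immortalised with hTERT and kept under G418. The unedited line (WT), 2 clones that had lost SETD2 through CRISPR/Cas9 with a guide to exon 3 (KO1 and KO2), and clones Rescue1 and Rescue2, knockout cells that carry a lentiviral FLAG-tagged full-length human SETD2 under blasticidin selection, were each profiled in 3 libraries. KO denotes the 6 libraries of KO1 and KO2, and rescue the 6 libraries of Rescue1 and Rescue2. The knockout lines were isolated clones and the rescue lines picked colonies, sample names in the supplement tie both rescue clones to KO2, and nothing in the labels says whether replicates were separate cultures. Exact p-values therefore measure the spread between libraries, which may be technical.

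SETD2 places H3K36me3, the trimethyl mark on a lysine of histone H3, which is laid down behind elongating RNA polymerase II over the bodies of transcribed genes. Gene deserts are long AT-rich stretches that are often compact, late-replicating chromatin at the nuclear lamina. They also hold distal enhancers, and many flank genes for developmental transcription factors or for cell adhesion molecules. An ATAC-seq peak marks DNA that the Tn5 transposase can reach, at active enhancers, promoters and insulators.

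The peak lists gave the position of each peak and its fold enrichment over the background of its own library. Occupancy, meaning a peak called in a library or not, was the measure compared between libraries. Fold enrichment ranked regions within a library, and it is printed per library but not compared between libraries, whose depths are not in the peak lists. A region was called gained when all 6 KO libraries and no WT library had a peak, and lost when all 3 WT libraries and no KO library had one. A gained region was called reversed when no rescue library had a peak and kept when all 6 had one, and a lost region was called restored or not restored in the same way.

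The reference sequence of 200 bases around the mean summit of the region with the strongest peaks in each class is given to show the kind of DNA involved. All are from hg38, plus strand, and capitals mark matches, on either strand, to short motif letters (AP-1 TGANTCA, TEAD GGAATG, SOX AACAAT).
Reversed region between MAP3K7 and EPHA7, chr6:91861090-91861289: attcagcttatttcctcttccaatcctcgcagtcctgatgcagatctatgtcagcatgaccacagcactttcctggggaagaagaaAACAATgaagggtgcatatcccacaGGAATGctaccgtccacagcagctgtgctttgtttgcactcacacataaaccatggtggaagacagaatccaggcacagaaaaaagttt
Kept region between NDST4 and TRAM1L1, chr4:116839910-116840109: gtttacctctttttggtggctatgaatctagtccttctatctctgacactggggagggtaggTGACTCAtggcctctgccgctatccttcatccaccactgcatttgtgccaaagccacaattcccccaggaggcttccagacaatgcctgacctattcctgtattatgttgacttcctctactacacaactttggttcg
Restored region between EPHA4 and PAX3, chr2:221818662-221818861: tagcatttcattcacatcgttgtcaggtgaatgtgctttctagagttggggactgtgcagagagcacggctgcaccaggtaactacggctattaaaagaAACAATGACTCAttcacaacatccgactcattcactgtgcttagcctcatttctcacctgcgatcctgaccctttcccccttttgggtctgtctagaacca
Not restored region between QKI and C6orf118, chr6:163924143-163924342: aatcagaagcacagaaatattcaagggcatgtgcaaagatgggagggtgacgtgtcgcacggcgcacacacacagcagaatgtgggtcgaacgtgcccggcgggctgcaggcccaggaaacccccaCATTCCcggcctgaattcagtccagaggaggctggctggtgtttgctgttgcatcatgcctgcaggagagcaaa
Region with a peak in all 15 libraries between MYO16 and IRS2, chr13:109424125-109424324: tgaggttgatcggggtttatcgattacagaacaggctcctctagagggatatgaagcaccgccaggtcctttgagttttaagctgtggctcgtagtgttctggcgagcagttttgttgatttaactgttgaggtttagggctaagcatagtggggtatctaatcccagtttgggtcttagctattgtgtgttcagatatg
The reversed sequence held 1 SOX and 1 TEAD match and the kept sequence 1 AP-1 match. In the restored sequence the SOX and AP-1 matches overlapped by a base and print as 1 run of capitals. The not restored sequence held 1 TEAD match, on the minus strand. No motif letters were found in the sequence open in all 15 libraries. That region matched mitochondrial DNA over 240 bases at 99.2% identity, 1 of 10 desert regions with such a match, so reads from mitochondria could not be told apart from reads of this locus.

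Knockout cells had peaks in more desert regions than wild-type cells. A peak was found in 13374, 12369 and 12468 desert regions in the WT libraries, in 15924, 17273 and 17177 in KO1, in 17018, 16676 and 19553 in KO2, in 14181, 13375 and 13866 in Rescue1, and in 18206, 16219 and 14248 in Rescue2. Every KO library lay above every WT library, while rescue libraries ranged from the WT level to within the KO range. The WT mean was 12737 ± 554 (SD, n = 3), the KO mean 17270 ± 1221 (n = 6) and the rescue mean 15016 ± 1840 (n = 6). The KO mean exceeded the WT mean by 4533 regions (two-sided exact permutation test, p = 0.0238, the smallest the design allows, adjusted p = 0.0317 over 8 tests), and the rescue mean fell by 2254 from the KO mean (exact permutation, p = 0.0346, adjusted p = 0.0396). With any single WT library left out, the exact p of the first difference was 0.0714, the smallest then possible. The rule for regions itself favours KO in this first difference, since regions could be listed through 6 KO libraries but only 3 WT libraries. Peaks counted with no merging are compared below only as a share. The second difference did not stay below 0.05 when KO1 replicate 2 or 3, KO2 replicate 3, any Rescue1 replicate or Rescue2 replicate 3 was left out (differences of -2273 to -1798, exact p of 0.0519 to 0.0693).

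Libraries differed in the length of their peak lists, from 191071 to 256644 peaks on the autosomes, so the share of a library's occupied regions that lay in deserts was compared as well. It was 7.41%, 7.39% and 7.40% in WT, 9.15%, 9.52% and 9.30% in KO1, 8.996%, 8.95% and 9.20% in KO2, 7.50%, 7.44% and 7.59% in Rescue1, and 8.30%, 8.00% and 7.94% in Rescue2. No KO library overlapped a WT or a rescue library, and every rescue library stayed above every WT library. The share was 1.79 percentage points higher in KO than in WT (exact permutation, p = 0.0238, adjusted p = 0.0317), and fell by 1.39 points from KO to rescue (exact permutation, p = 0.00216, the smallest possible, adjusted p = 0.0173). Without any single WT library the exact p for KO against WT was 0.0714, again the smallest possible. Counting each library's own peaks with no merging gave 7.22% to 7.34% in WT, 8.64% to 9.45% in KO and 7.18% to 8.17% in rescue. By that count KO still overlapped neither arm, but Rescue1 replicates 1 and 2 (7.20% and 7.18%) lay below every WT library.

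**Figure D1:**
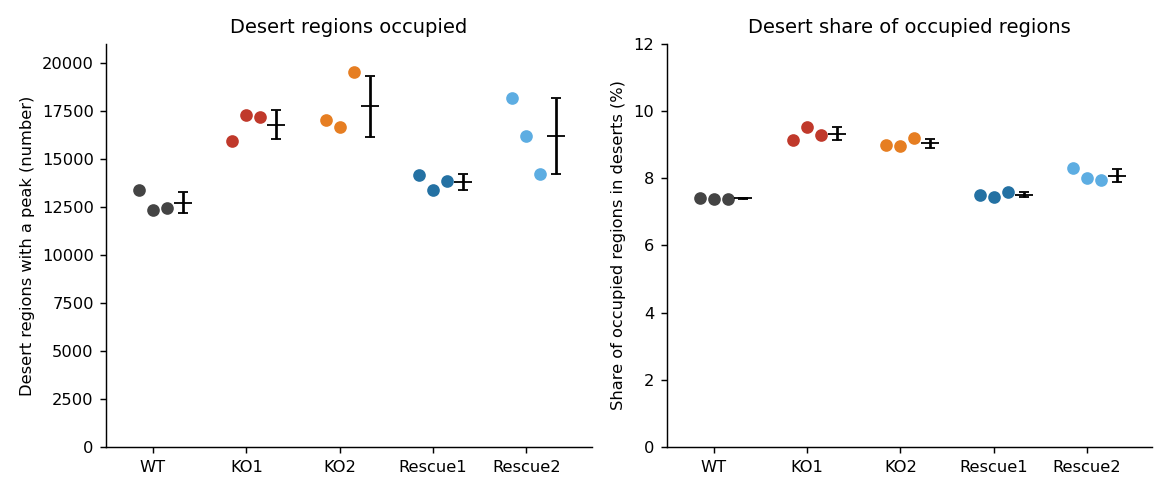
Desert regions with a peak (left, number) and their share of all occupied regions (right, percent) in each library, with the mean and SD (n = 3) of each group beside the points. The 6 KO libraries lie at 8.95% to 9.52% and the WT libraries at 7.39% to 7.41%, with Rescue1 near WT and Rescue2 between WT and KO.

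Gains in deserts outnumbered losses. Of the 27245 desert regions, 2646 (9.71%) were gained in KO against a background of 4.77% over all regions, and 578 (2.12%) were lost against a background of 2.49%. There were 4.58 gained desert regions for each lost one, and 1.68 among the other 258266 regions. KO lists were longer than WT lists on average (214850 against 196565 peaks), which favours gains. With the strongest 150000 peaks of each library, 1756 desert regions were gained and 657 lost. Other regions were not counted at that setting. Another 6382 desert regions (23.4%, against 37.1% of other regions) had a peak in all 15 libraries, and the remaining 17639 fell in none of these classes. Deserts held 19.4% of all gained regions and 8.14% of all lost regions, beside 9.54% of all regions. Single regions could not be called by their own test: Fisher's exact test over libraries, adjusted over all 285511 regions, called none, with smallest adjusted p-values of 0.164 (KO and WT) and 0.101 (rescue and KO). At an unadjusted p under 0.05, 3647 desert regions (13.4%, background 6.93%) were higher and 923 (3.39%, background 3.86%) lower in KO than in WT. In rescue against KO, 397 (1.46%, background 2.49%) were higher and 1708 (6.27%, background 2.78%) lower.

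Of the 2646 gained desert regions, 654 were reversed (24.7%, against 15.1% of other gained regions), 1067 were kept (40.3%, against 45.8%), and 925 were mixed among rescue libraries. Over all regions the reversed class held 0.812% and the kept class 2.14%. Of the 578 lost desert regions, 32 were restored (5.54%, against 13.2% of other lost regions), 307 were not restored (53.1%, against 41.0%) and 239 were mixed, where the backgrounds were 0.312% restored and 1.04% not restored. These counts share the KO libraries with the calls that defined the regions. Against KO, 886 desert regions (3.25%, background 1.23%) were lost in rescue, with a peak in all KO and no rescue library, and 112 (0.411%, background 0.906%) were gained. Without KO2 replicate 3, the library with the longest KO list, the restored count was 58 and the count gained in rescue was 179.

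Reversal was also measured in libraries that had no part in choosing the regions. Desert regions gained in KO1 against WT numbered 4064 (background 7.03% of all regions), and 73.5%, 72.4% and 80.02% of them had a peak in the KO2 libraries, 40.8%, 39.3% and 40.3% in Rescue1, and 52.0%, 47.3% and 40.9% in Rescue2. KO2 and rescue libraries did not overlap, and their means were 75.3% ± 4.11 (SD, n = 3) and 43.4% ± 5.08 (n = 6), a fall by 31.9 points (exact permutation, p = 0.0238, adjusted p = 0.0317). Of other regions gained in KO1, 80.4% ± 4.60 were held in KO2 and 54.5% ± 5.58 in rescue. The desert minus other gap was -5.62 to -4.75 points in KO2 and -12.4 to -9.09 points in rescue, and it differed between KO2 and rescue (exact permutation, p = 0.0238, adjusted p = 0.0317). With deserts set at 500 kb from a gene in place of 200 kb, the change in the gap was 0.473 points in the other direction (exact p = 0.667).

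Desert regions lost in KO1 numbered 1125 (background 4.80%). In KO2 26.7%, 24.7% and 38.5% of them had a peak, in Rescue1 31.9%, 29.8% and 29.3%, and in Rescue2 52.8%, 42.7% and 35.0%. The means of 30.0% ± 7.45 (n = 3) in KO2 and 36.9% ± 9.19 (n = 6) in rescue differed by 6.96 points (exact permutation, p = 0.310), which did not pass the threshold. With the strongest 150000 peaks of each library the difference was 9.63 points and with regions defined on KO2 in place of KO1 9.72 points, each with an exact permutation p = 0.0238. Other regions lost in KO1 had a peak in 30.7% ± 6.82 in KO2 and 49.6% ± 8.39 in rescue. The desert minus other gap was -1.44 to -0.0539 points in KO2 and -14.3 to -10.9 points in rescue, and it differed (exact permutation, p = 0.0238, adjusted p = 0.0317). Leaving out any KO2 library left the smallest possible p of all these comparisons at 0.0714.

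**Figure D2:**
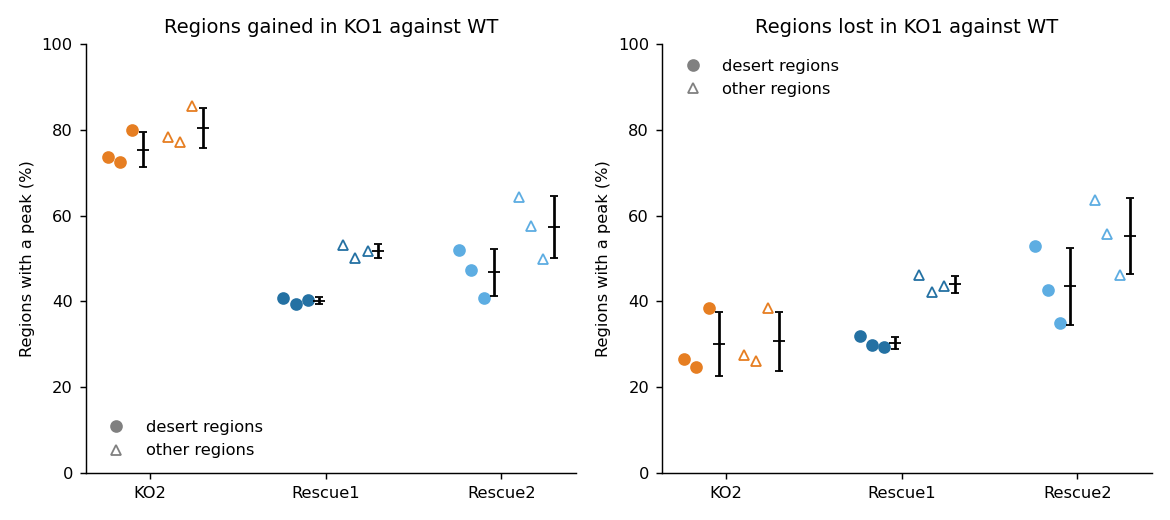
Percent of regions gained in KO1 against WT (left) or lost in KO1 against WT (right) that had a peak in each KO2, Rescue1 and Rescue2 library, for desert regions (filled circles) and other regions (open triangles), with the mean and SD (n = 3). Gained desert regions were held in 72.4% to 80.02% in KO2 and 39.3% to 52.0% in rescue libraries.

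Outside gene bodies, the gained percentage rose with distance up to 1 Mb. Gained regions made up 4.20% of regions inside a gene body, 2.79% within 10 kb of one, 3.72% at 10 to 50 kb, 5.23% at 50 to 100 kb, 7.09% at 100 to 200 kb, 9.59% at 200 to 500 kb, 11.1% at 500 kb to 1 Mb and 7.76% at 1 Mb or more. Lost regions stayed between 2.21% and 2.77% up to 1 Mb and made up 1.45% beyond it. In the farthest class 39.5% of regions lay within 1 Mb of an assembly gap, and without these the gained percentage there was 11.0%. The mean number of occupied regions in KO over that in WT was 1.07 inside genes, 1.31 at 200 to 500 kb and 1.44 at 500 kb to 1 Mb, while rescue over WT was 1.11, 1.15 and 1.19. At 1 Mb or more the KO ratio was 1.43 and the rescue ratio 1.34. The threshold of 200 kb did not mark a step: gained regions made up 8.39% of those at 180 to 200 kb and 8.35% at 200 to 220 kb.

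**Figure D3:**
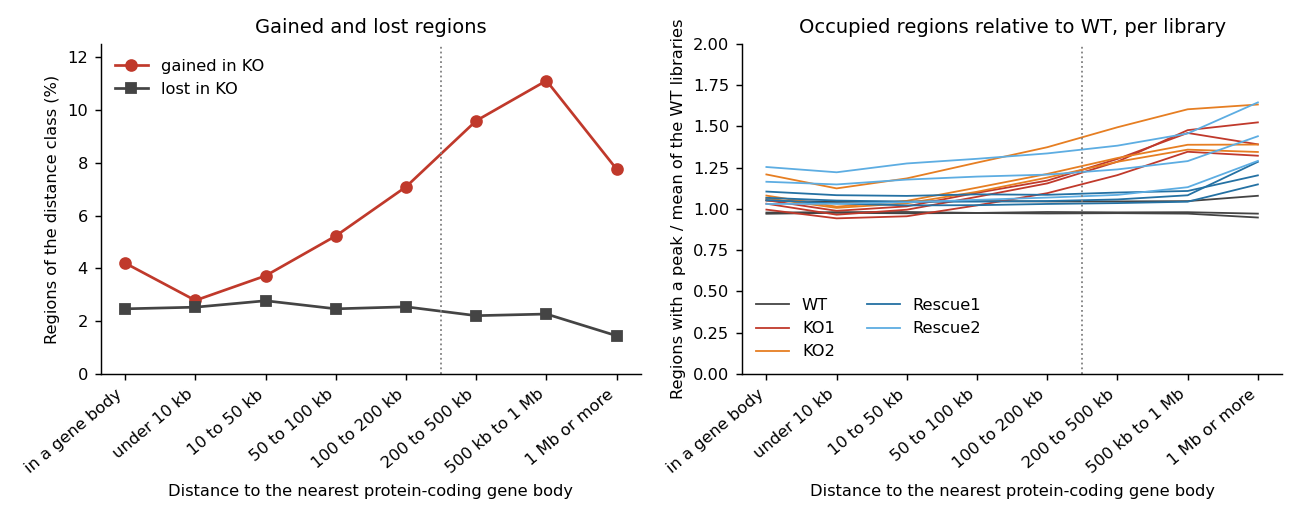
Left, percent of regions gained (circles) or lost (squares) in KO against WT by distance to the nearest protein-coding gene body. Right, number of regions with a peak in each library divided by the mean of the WT libraries. The dotted line marks 200 kb. The KO lines climb from near 1 beside genes to a mean of 1.44 in the 500 kb to 1 Mb class, where rescue has a mean of 1.19.

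Base composition moved with these results. Desert regions had a median GC content of 44.1% and other regions 48.3%, and the median over all occupied regions was 48.3% in WT, 47.4% to 47.8% in KO and 48.1% to 48.3% in rescue libraries. Within 5 GC classes of equal size, the gained percentage of desert regions exceeded that of other regions in each class, from 10.5% against 5.91% in the most AT-rich to 3.31% against 1.68% in the most GC-rich. The mean over the classes of the desert share was 7.66% to 7.67% in WT, 8.99% to 9.34% in KO and 7.72% to 8.52% in rescue libraries, so KO and WT did not overlap there either. Only in the most GC-rich class did their shares overlap, at 2.07% to 2.11% in WT and 2.09% to 2.57% in KO. By chromosome, the desert share was higher in all KO than in all WT libraries on 18 of 22, and the gained percentage was higher in desert than in other regions on 20.

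Occupancy of the listed regions varied less across deserts in KO than in WT libraries. For the 539 deserts with 10 or more desert regions, the percentage of their regions with a peak had a median of 50% in WT (quartiles 29.5% and 62.6%), 63.1% in KO1 (56.5% and 70.2%), 67.9% in KO2 (61.1% and 73.3%), 52.4% in Rescue1 (38.6% and 62.1%) and 62.6% in Rescue2 (48.9% and 71.3%). The SD over deserts was 21.6 to 23.3 percentage points in the WT libraries, 12.9 to 13.9 in KO and 18.3 to 21.0 in rescue, with no overlap between KO and the others. In 48 deserts fewer than 10% of the regions had a peak in WT, against 2 in KO1, 3 in KO2, 25 in Rescue1 and 20 in Rescue2. In those 48 deserts, chosen on WT, a median of 71.8% of the regions had a peak in KO1, 63.8% in KO2, 29.9% in Rescue1 and 34.8% in Rescue2. As 12 of the 15 libraries that defined regions came from KO and rescue clones, deserts without WT peaks are listed only through those clones. The rule for regions thus itself favours a wider spread and more deserts under 10% in WT. These values therefore do not show how even open chromatin was in the cells themselves.

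**Figure D4:**
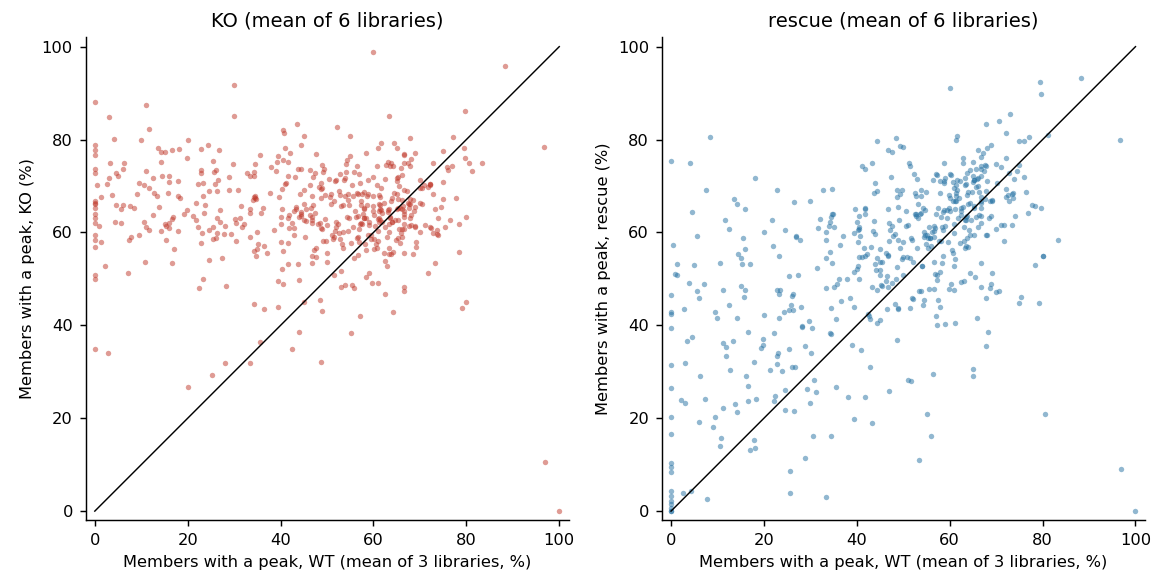
Percent of the members of each of 539 deserts with a peak in WT (x axis, mean of 3 libraries) against KO (left) or rescue (right, mean of 6 libraries each). The line marks equal values. The SD over deserts is 12.9 to 13.9 points in KO libraries and 18.3 to 21.0 in rescue libraries, and 2 deserts at the lower right are near 100% in WT and near 0 in KO and rescue.

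Called without overlap of libraries, 256 of the 539 deserts (47.5%, background 20.7% of all intervals of 10 or more regions) had more occupied members in every KO than in every WT library, and 11 (2.04%, background 5.14%) had fewer. Every rescue library lay below every KO library in 118 deserts (21.9%, background 5.22%) and above in none (background 3.91%, that is 324 other intervals).

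Long silent stretches were counted in each group. A stretch was counted for a group where 10 or more consecutive regions of any kind, including at least 1 desert region, had no peak in its 3 libraries. WT had 261 such stretches with 4154 desert regions (15.2%), KO1 had 16 with 110 (0.404%), KO2 had 29 with 303 (1.11%), Rescue1 had 148 with 1975 (7.25%) and Rescue2 had 111 with 1508 (5.53%). Regions in a stretch silent in WT were listed only through KO and rescue libraries, and a region of either KO clone could be listed through the other clone, so the rule for regions itself favours more such stretches in WT. The order of the groups was the same with 20 or more regions and with peaks of -log10 q of 5 or more. Between MAT2B and TENM2, the teneurin 2 gene, 58 consecutive desert regions over 1858 kb had no WT peak. The KO1 libraries had 54, 58 and 57 peaks in it, KO2 25, 17 and 29, Rescue1 10, 11 and 12, and Rescue2 7, 6 and 7. Another stretch of 70 regions, 69 of them desert regions, lay over 930 kb in the TMEM132B to TMEM132C desert, where the libraries of WT had no peak, those of KO1 50 to 59, KO2 46 to 55, Rescue1 44 to 53 and Rescue2 51 to 64. Rescue libraries thus had fewer peaks than all KO libraries in the first stretch and as many in the second. Both were picked after their values were seen.

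Clusters of gained desert regions were described next. Chains of 3 or more gained regions no more than 100 kb apart within a desert held 1633 of the 2646 (61.7%) in 311 clusters, whereas 106 of the 578 lost regions (18.3%) lay in 27 clusters. As there were more gained than lost regions, these shares are not comparable. The largest cluster had 30 gained of 68 desert regions over 636 kb between TMEM132B and TMEM132C, on chromosome 12 from 126248016 to 126884136. Its WT libraries had 7, 6 and 6 regions with a peak, KO1 48, 50 and 52, KO2 50, 45 and 53, Rescue1 40, 36 and 40, and Rescue2 49, 45 and 44. The next was in TBX3 to MED13L with 25 of 65 regions, beside the T-box transcription factor gene TBX3. A further cluster between TMEM132B and TMEM132C had 24 gained of 64 regions, followed by PDCD6IP to ARPP21 with 21 of 42 and SATB1 to KCNH8 with 18 of 33, beside the gene for the chromatin organiser SATB1. In the last, WT libraries had no peak at all, KO libraries had 23 to 28, Rescue1 10 to 12 and Rescue2 18 to 21. The regions of this cluster were thus listed only through KO and rescue libraries. Of its 18 gained regions, 9 to 11 had a peak in Rescue1 and 15 to 17 in Rescue2.

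**Figure D5:**
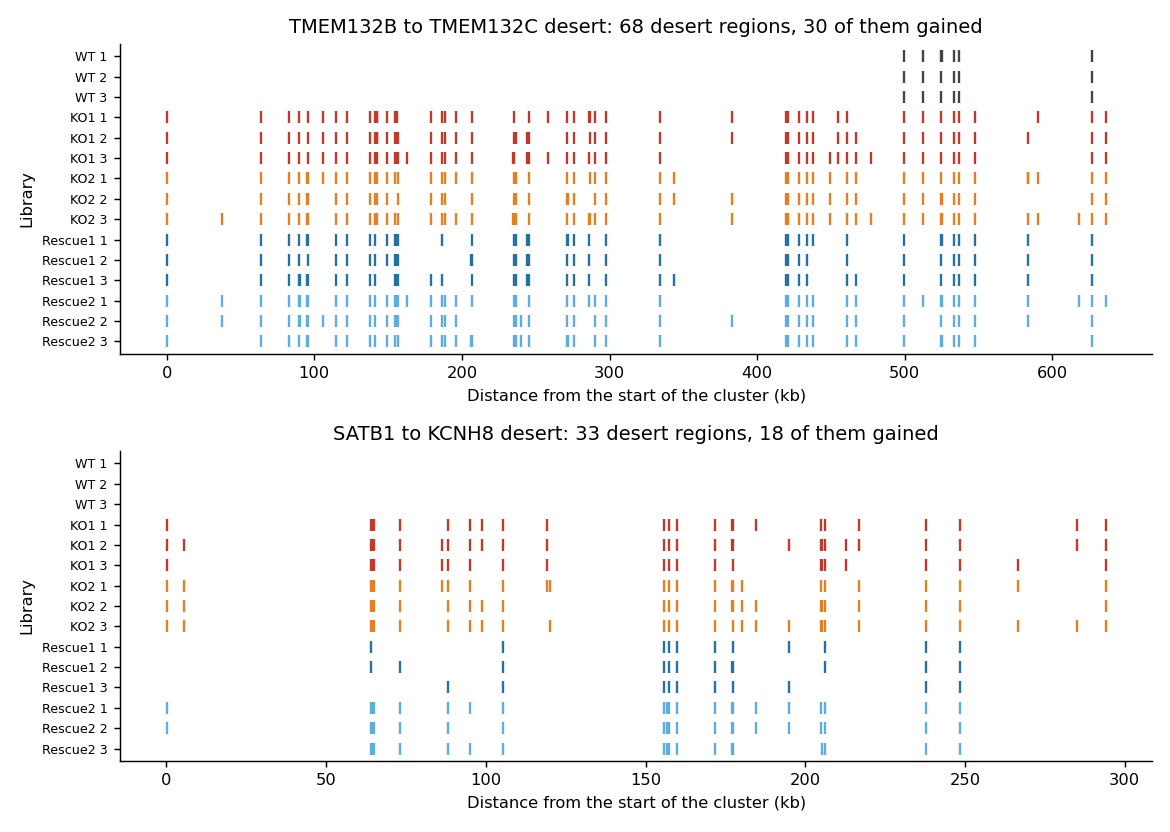
Desert regions with a peak (ticks) in each library along 2 of the 5 largest clusters of gained regions, by distance from the start of the cluster in kb, one row per library coloured by group. The upper cluster has 6 or 7 occupied regions in WT and 36 or more in all other libraries, and the lower one has none in WT.

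The 8 deserts with the most gained regions held 281 of the 2646, and 78 deserts held 50% of them. TMEM132B to TMEM132C had 58 gained of 249 regions. AGA to TENM3, which reaches from a lysosomal enzyme gene to the teneurin 3 gene, had 49 gained of 249. Its WT libraries had 70, 61 and 66 occupied regions, KO1 139, 155 and 154, KO2 160, 159 and 176, Rescue1 163, 146 and 160, and Rescue2 207, 170 and 148, so that rescue libraries lay within or above the KO range. PCDH7 to ARAP2 (33 gained of 170) and C4orf33 to PCDH10 (29 of 134), both beside protocadherin genes, were at 39 to 45 and 28 to 32 regions in WT, 88 to 127 and 79 to 98 in KO, and 90 to 130 and 67 to 92 in rescue.

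NXPH1 to NDUFA4, beside the gene for the neurexin ligand neurexophilin 1, had 31 gained of 73 regions. In the WT libraries 0, 1 and 0 of them had a peak, in KO1 48, 52 and 51, in KO2 46, 54 and 57, in Rescue1 35, 36 and 35, and in Rescue2 55, 46 and 44. With so few WT peaks, none of these regions could be listed through WT libraries alone. JRKL to CNTN5 (28 gained of 82), which ends at the contactin 5 gene, had 4 to 6 in WT, 47 to 61 in KO and 31 to 44 in rescue. PDCD6IP to ARPP21 (27 of 89) had 18 to 24, 61 to 76 and 35 to 57. In both, all rescue libraries lay below all KO libraries and above all WT libraries. TBX3 to MED13L (26 of 96) had 13 to 15 in WT, 43 to 49 in KO1, 62 to 76 in KO2, 48 to 54 in Rescue1 and 69 to 83 in Rescue2.

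Other deserts were at or below the WT level in rescue. Of the 256 deserts with every KO above every WT library, 25 had no rescue library above the highest WT library. In 127 of the 256, every rescue library lay above every WT library. The rescue mean was nearer to the WT than to the KO mean in 143. The following were picked after their values were seen. ADGRL2 to TTLL7, beside the latrophilin 2 gene, had 27 occupied of 71 regions in each WT library, 44 to 61 in KO and 13 to 22 in rescue, and 13 of its 18 gained regions were reversed. MAP3K7 to EPHA7, between the TAK1 kinase gene and an ephrin receptor gene, had 70 to 79 of 143 in WT, 92 to 114 in KO, 22 to 29 in Rescue1 and 47 to 65 in Rescue2. In both deserts every rescue library lay below every WT library.

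Flanking genes were grouped by lists of families. Deserts beside adhesion and synaptic family genes, such as protocadherins, contactins and teneurins, had 508 gained of 3761 regions (13.5%) and 85 lost (2.26%), beside 9.71% and 2.12% over all deserts. Those beside developmental transcription factor families had 244 of 2334 gained (10.5%) and 42 lost (1.799%), and those beside kidney and nephron factors 44 of 436 (10.1%) and 10 lost (2.29%). Secreted factor families had 30 of 399 gained (7.52%) and 8 lost (2.01%). Deserts beside genes of the epithelial-to-mesenchymal transition had 21 of 685 gained (3.07%), under the value for all deserts, and 19 lost (2.77%). Of the gained regions, 21.5% were reversed beside adhesion and synaptic genes, 30.3% beside developmental factors, 50% beside kidney and nephron factors, 16.7% beside secreted factors and 14.3% beside the transition genes, against 24.7% over all deserts. Of the reversed regions beside kidney and nephron factors, 8 lay in the single desert from GATA3 to CELF2. The lists overlap, and most kidney and nephron deserts with gained regions, such as GATA3 to CELF2, were also counted under developmental factors. None of these shares was tested against the others.

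Single deserts of these lists differed in their reversal, and the examples below were chosen after their values were seen. GATA3 to CELF2, beside the gene for GATA3, a transcription factor of nephric duct development, had 27, 30 and 26 occupied of 113 regions in WT, 56, 61 and 58 in KO1, 61, 61 and 70 in KO2, 23, 21 and 24 in Rescue1, and 30, 29 and 21 in Rescue2. FANCL to BCL11A had 16 to 18 of 64 in WT, 39 to 51 in KO and 10 to 19 in rescue, and 11 of its 12 gained regions were reversed. NNT to FGF10, beside the gene for the growth factor FGF10, had no occupied region of 11 in WT or rescue and 8 to 11 in KO. These 11 regions were listed only through KO libraries, so the rule for regions itself favours this contrast. MEIS2 to TMCO5A had means of 0.333 of 11 in WT, 9.33 in KO and 3.50 in rescue, and DCDC2C to SOX11 had 0 of 41, 30.2 and 10.8. The DCDC2C to SOX11 regions were likewise listed without any WT library. The desert between DNAJC19 and SOX2, the stem cell factor gene, had a WT mean of 4 of 13, a KO mean of 9 ± 1.79 (SD, n = 6) and a rescue mean of 3.67 ± 0.816 (n = 6). On the other side, SOX2 to ATP11B had no gained and 3 lost of 78 regions. By contrast ZFP64 to TSHZ2 and ARRDC3 to NR2F1 had 13 and 11 gained regions, none of them reversed. ZEB2 to ACVR2A, beside the gene for the mesenchymal transcription factor ZEB2, had 5 gained and 9 lost of 222 regions.

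Lost regions were spread over 277 deserts, and in a pair of deserts nearly all regions were lost. ADGRD1 to SFSWAP, between an adhesion receptor gene and a splicing regulator gene, had 11 occupied of 11 regions in each WT library and 0 in all 12 KO and rescue libraries. The peak lists showed 12, 12 and 13 WT peaks over 138 kb there, on chromosome 12 from 131350337 to 131488030, and in the other 12 libraries 1 peak in all. In TCERG1L to PPP2R2D, 11, 10 and 11 of 11 regions were occupied in WT, 1 or 2 in KO and 1 in rescue. There, 17 consecutive regions over 167 kb on chromosome 10, from 131592071 to 131758887, had 18, 17 and 18 WT peaks and none in the other 12 libraries. No other stretch of 10 or more regions with a desert region was without a peak in all KO and rescue libraries, a rule under which regions are listed through the WT libraries alone. In these stretches all 11 and 16 of the 17 regions had a peak in every WT library. A loss of the DNA in the clones and closed chromatin cannot be told apart in peak lists. The deserts next in number of lost regions were the interval before TPTE on chromosome 21, with 10 of 437, and ZEB2 to ACVR2A, with 9 of 222.

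The strongest single regions had folds well above the background of their libraries. The reversed region between MAP3K7 and EPHA7, on chromosome 6 from 91860985 to 91861742, had fold enrichments of 20.2, 17.8 and 19.6 in KO1 and 18.5, 17.9 and 18.6 in KO2, and no peak in WT or rescue. Reversed regions between DUSP26 and UNC5D on chromosome 8 and between TSN and CNTNAP5 on chromosome 2 had folds of 14.5 to 19.8 and 14.4 to 18.3 in KO. The next were between ATP10B and GABRB2 (12.6 to 19.8), HS6ST1 and RAB6C (13.7 to 17.1), and MAT2B and TENM2 (13.7 to 20.2).

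The strongest kept region, between NDST4 and TRAM1L1 on chromosome 4 from 116839882 to 116840413, overlapped 2 long non-coding RNA genes and had folds of 19.4 to 24.4 in KO and 22.02 to 25.3 in rescue. Other kept regions had the following folds: between REEP3 and CTNNA3 18.8 to 23.2 in KO and 6.25 to 10.5 in rescue, and between CSMD3 and TRPS1 17.6 to 22.3 in KO, 4.40 to 5.54 in Rescue1 and 14.1 to 17.2 in Rescue2. Between TMTC2 and SLC6A15 folds were 16.6 to 22.95 in KO, 12.1 to 13.4 in Rescue1 and 4.31 to 6.20 in Rescue2. A pair of kept regions between AGA and TENM3 had 16.4 to 22.5 in KO and 15.8 to 20.9 in rescue.

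Restored regions were ranked by their WT folds. Between EPHA4 and PAX3 the folds were 11.0, 10.0 and 11.0 in WT, 5.49, 5.50 and 6.47 in Rescue1, and 9.54, 7.18 and 8.33 in Rescue2, with no peak in KO. Those between ZEB2 and ACVR2A, ZSWIM6 and KIF2A, and ZIC1 and AGTR1 had 7.78 to 11.0 in WT and 4.04 to 10.2 in rescue. The strongest not restored region, between QKI, an RNA-binding protein gene, and C6orf118, had folds of 20.4, 20.6 and 20.7 in WT and no peak elsewhere. Not restored regions in TCERG1L to PPP2R2D (15.6 to 17.7 in WT) and ADGRD1 to SFSWAP (11.9 to 17.4) were also among the strongest. Regions open in all 15 libraries followed. Those between NUDT12 and EFNA5, IGFBP3 and TNS3, and CDH26 and CDH4, the last within MIR646HG, had folds of 20.6 to 25.9, 21.0 to 26.8 and 19.2 to 25.3. The region with the mitochondrial match had 31.5 to 36.1.

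The classes differed in width and in the letters they held, counted in the 200 bases around each summit and given without a test. Gained desert regions had a median width of 304 bp and lost ones 185 bp, beside 219 bp for all desert regions. Median within-library percentiles of fold enrichment were 55.1 for gained, 36.3 for lost and 38.6 for all desert regions. A region is the union of the peaks of all libraries. A gained region needs a peak in at least 6 libraries and a lost one in only 3, so the call rule itself favours wider and stronger gained regions. Median width was 178 bp in not restored, 268 bp in reversed, 358 bp in kept and 437 bp in all-15 desert regions. Letters of AP-1, the dimer of JUN and FOS proteins, were found in 45.1% of gained, 20.4% of lost and 35.6% of all desert regions (30.1% of all 285511). Desert regions open in all 15 libraries held them in 45.1% as well. Outside deserts they were in 38.1% of gained and 18.3% of lost regions, so this contrast was not particular to deserts. Letters of HNF1 (GTTAATNA), a transcription factor of renal tubule and liver, were found in 9.17% of lost, 10.7% of not restored, 3.29% of gained and 3.78% of all desert regions (2.93% of all regions). Other regions held HNF1 letters in 7.24% of lost, 9.73% of not restored and 2.53% of gained. The octamer (ATGCAAAT) was in 3.02% of gained and 1.83% of all desert regions (1.39% of all), and C/EBP letters (TTGCNNAA) in 18.3% of reversed, 11.996% of kept and 12.1% of all desert regions (10.4% of all). Among other regions the octamer was in 2.66% of gained, and C/EBP letters in 18.6% of reversed and 10.6% of kept. A match to CTCF, the insulator protein, was found in 0.306% of reversed, 2.12% of all-15 and 1.26% of all desert regions (1.95% of all regions). Letters of NF-kB (GGGANTTCC) were in 3.52% of reversed and 1.12% of kept regions (1.96% of all). TEAD letters were in 22.8% of lost, 15.6% of gained and 17.4% of all desert regions, and SOX letters in 12.98%, 14.5% and 12.1% (15.8% and 9.88% of all regions).

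The clones were also compared one by one, by the same rule of all against none of 3 libraries each. Against WT, KO1 gained 4064 (14.9%, background 7.03% of all regions) and lost 1125 (4.13%, background 4.80%), and KO2 gained 4048 (14.9%, background 8.29%) and lost 773 (2.84%, background 3.23%). Rescue1 gained 2296 (8.43%, background 6.65%) and lost 1567 (5.75%, background 4.32%), and Rescue2 gained 2866 (10.52%, background 7.74%) and lost 921 (3.38%, background 2.61%). Gains thus exceeded the background in each clone, and losses did so in the rescue clones. Set against KO2, Rescue1 lost 2789 desert regions (10.2%, background 4.95%) and gained 401 (1.47%, background 2.35%), and Rescue2 lost 1734 (6.36%, background 2.93%) and gained 577 (2.12%, background 3.05%). Between the knockout clones, 728 desert regions were in all KO1 and no KO2 library (2.67%, background 1.02%) and 759 the reverse (2.79%, background 2.52%). Of desert regions with a peak in any library of a group, 63.2% to 66.3% had one in all 3, and of other regions 70.6% to 73.2%.

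The label of renal epithelium was checked at promoters: 13 of 14 epithelial and tubule genes had a promoter peak in all 15 libraries, and LRP2 in 14. Of genes of other cell types, PTPRC, MYOD1 and NEUROD1 had none, while CDH5 and VWF had one in all 15. The SETD2 promoter had a peak in every library, which says nothing of a small deletion in exon 3.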

How the data were processed

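ATAC-seq libraries of RPTEC were deposited as 1 peak list each, for 5 groups of 3. Reads had been aligned by the authors to hg38 with BWA (0.7.17 in the submitters' processing notes) and peaks called per library with MACS2 2.2.7.1, and DiffBind 2.14.0, named in the same notes, was not used here. The deposited columns are the peak interval, its summit, a score, the summit's fold enrichment over local background (a ratio), and −log10 values of p and of q. MACS2 settings and removal of duplicate reads or of problem regions are not given in the sources used here. The peak lists hold no read depth, and the depth metrics that the paper places in a supplementary table were not used here. Precision was therefore judged only from the spread of libraries and the length of the lists. A call also depends on depth, since a deeper library passes the q threshold at weaker sites. MACS2 values ranked peaks within a library and set thresholds, and were not compared between libraries.

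Peaks were merged and annotated in Python 3.11.15 (NumPy 2.4.6, pandas 2.3.3, SciPy 1.17.1) with GENCODE v44 and the hg38 sequence, in which all 99 contigs of the lists were found and no peak passed a contig end. BLAST+ 2.17.0 found matches to mitochondrial DNA (50 bases or more, 80% identity or more). Motif letters were searched on both strands in the 200 bases around the mean summit. Library values were compared between arms by two-sided exact permutation tests, adjusted by Benjamini-Hochberg over 8 tests, and regions by Fisher's exact test adjusted over all regions. The code was tested on simulated data. Named regions were the strongest of each class by the mean within-library rank of fold enrichment (6 reversed, 6 kept, 4 restored, 4 not restored and 4 in all 15 libraries). Named deserts were the 8 with the most gained and the 4 with the most lost regions, and named clusters the 5 largest. Some items are not reported here. Members and gene lists were chosen with earlier results of these data known. Repeat content was not measured, as the reference used has no masking. The replicate numbers did not pair libraries: over desert regions, deviations from the group means correlated at -0.035 to 0.023 for the same number and at -0.027 to 0.035 for different numbers.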

Additional observations from a re-analysis of the deposited data

Results flagged for a closer look

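In 2 sets of 6 libraries, 1 library stood apart from the other 5, with a gap to its neighbour that took most of the range of the set. Such a gap is found by chance in about 1 of 20 sets, and 29 sets were examined. KO2 replicate 3 had 19553 desert regions with a peak, beside 15924 to 17273 in the other KO libraries. It also had the longest list of the KO libraries, with 246615 peaks, and its desert share of 9.20% lay within the range of the others. In the TCERG1L to PPP2R2D desert it had 2 occupied regions, where each of the other KO libraries had 1. With counts this small the gap took the whole range by necessity, and the rate of 1 of 20 does not apply to this set.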

How the results depend on the processing

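Every difference and count was recomputed under other settings. The desert share kept its direction in all of them, and the difference between rescue and KO stayed past 0.05 in all. With deserts at 100 kb, the rescue minus KO difference in desert regions was -2934 (exact p = 0.0801), with 1028 lost, 205 gained in rescue and 59 restored. At 500 kb, the change in the gap between desert and other gained regions turned to 0.473, with 1013 gained, 202 lost, 32 gained in rescue, 317 lost in rescue, 226 reversed and 13 restored. Outside every annotated gene, these 6 counts were 1623, 316, 57, 536, 406 and 14. With peaks required in at least 2 of 3 and at most 1 of 3 of the libraries of an arm, they were 5746, 2336, 1516, 3401, 2566 and 504. The strongest 150000 peaks gave 1756 gained and 657 lost. They also gave a difference of 9.63 points between rescue and KO2 for regions lost in KO1 (exact p = 0.0238), and defining regions on KO2 gave 9.72 (exact p = 0.0238). A peak over most of a region gave -1992 (exact p = 0.0952) for rescue minus KO. KO1 alone gave 4054 (exact p = 0.1), -1775 (exact p = 0.167) and a share difference of 1.93 (exact p = 0.1), with counts of 4064, 1125, 526, 2006, 1628 and 176. KO2 alone gave 5012 (exact p = 0.1), -2733 (exact p = 0.0952) and 1.65 (exact p = 0.1), with 4048 gained, 1487 lost in rescue and 1116 reversed. For KO minus WT, with 3 libraries against 3, 0.1 is the smallest exact p possible, whereas the fall from KO to rescue could have reached 0.0238 and lost its call with either clone. The cause of these changes was not tested.

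Permuting within a replicate block left 4533 (exact p = 0.0741), -2254 (0.0648), 1.79, -31.9, -6.02 and -11.9 (each 0.0741, the smallest possible) above 0.05, and the share difference of -1.39 below it (0.00926). Same-numbered libraries were not paired, and 6 of 15 correlated best with their own number.

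Leaving out single libraries gave 4077 to 4852 for KO minus WT, -2892 to -1798 for rescue minus KO, and 1.72 to 1.84 and -1.49 to -1.32 for the shares. With any single WT library left out, KO minus WT had an exact p of 0.0714 for both the number and the share, and with any single KO2 library left out so did the comparisons of KO2 with rescue that had passed. Regions gained in KO1 gave -33.6 to -29.5 and, against other regions, -6.87 to -5.76. Those lost in KO1 gave 3.79 to 11.2 and -12.2 to -10.3. Counts were 2646 to 2922 gained, 578 to 847 lost, 112 to 179 gained in rescue, 886 to 1058 lost in rescue, 664 to 758 reversed and 32 to 58 restored. Stretches of 20 or more regions, a setting chosen after seeing the data like the GC classes, the share of own peaks and the stricter q for stretches, held 9.88% of desert regions in WT, 0.139% in KO1, 0.228% in KO2, 3.74% in Rescue1 and 2.42% in Rescue2. Read depth limits weak peaks and is not in the peak lists.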
